A study of Mus musculus with 19 samples.

Results

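The genes described here are the variable segments of the immunoglobulin heavy chain, taken as every gene of the expression table whose symbol starts with Ighv in any capitals. They number 120 of the 27179 genes listed, and 103 of them carry exactly that spelling while 17 are written in other capitals. RNA with a polyA tail was sequenced from unsorted splenocytes of 19 mice of the FCG model, each with its own library. In these mice Sry is deleted from the Y chromosome and carried as a transgene on chromosome 3, so that gonads and sex chromosomes vary separately. Sires were B6.Cg-Tg(Sry)2Ei Srydl1Rlb/ArnoJ and dams C57BL/6J. All 19 mice received heat-killed Streptococcus pneumoniae (HKSP), strain R36A, by intraperitoneal injection, and spleens were taken 7 days later. The groups were XXF (XX with ovaries, 5 mice), XYF (XY with ovaries, 4 mice), XXM (XX with testes, 5 mice) and XYM (XY with testes, 5 mice). Mice without immunization were not used here, their age was not used here, and a comparison of gonadal sexes takes in every hormone the gonads make. The titles of the XXM samples alone carry an extra tag, so a batch that coincides with XXM cannot be told apart from that group. Sample numbers in the titles run through all males first and then all females, and the females have a mouse numbering of their own. No batch is given, so a batch that follows this split cannot be told apart from gonadal sex.

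An antibody heavy chain is encoded by joining a V, a D and a J segment in each developing B cell, and the V segment supplies most of the part that touches antigen. Every B cell and its offspring therefore transcribe mainly the V gene they joined, so RNA of a V gene follows the cells that chose it and how actively they transcribe it. Plasma cells and plasmablasts hold far more heavy chain RNA per cell than resting B cells. Antibodies to pneumococcal phosphorylcholine are known for a preferred use of Ighv7-1, and B-1 cell antibodies to phosphatidylcholine for Ighv11-1, Ighv11-2 and Ighv12-3.

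Levels are in RPKM, reads per kilobase of gene scaled to library size, and were recovered from the deposited log2(RPKM + 1) values. Library sizes worked out from the spacing of those values ran from 11263753 reads in XYF F6 to 19962022 in XYM 13. Reads counted on the 120 Ighv genes ran from 6591 in XXM 2 to 84352 in XYM 13, which was 0.0544% to 0.423% of a library. Of the 120 genes, 118 had a read in some mouse, 89 had reads in all 19 mice, and 2 (Ighv1-62-1 and Ighv16-1) had none. A count of 0 among the 319671253 reads of all libraries allows up to 3 reads. The filter on low values kept genes that reached 0.5 RPKM in 4 or more mice, and 111 Ighv genes passed it. The 9 that did not pass reached at most 2.26 RPKM in any mouse. No row for Ighv7-1 or Ighv7-3 was found, so these genes were not analysed here. XYF F9 and XYM 9 stood apart from the other 17 libraries in myeloid markers, and XYF F6 and XYF F9 in erythroid markers, so counts without these mice are given beside the results they change.

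The V exons of the genes that the results below turn on are printed in part, to show how far each can be told from its nearest relative. Capitals mark the bases that differ from the most similar other Ighv gene, which is Ighv6-3 for Ighv13-2, Ighv6-6 for Ighv6-3, Ighv9-2 for Ighv9-3, Ighv1-84 for Ighv1-75, Ighv5-9-1 for Ighv5-12 and Ighv1-71 for Ighv1-62-2. Sequences read 5′ to 3′ along the coding strand, which is the minus strand of build GRCm38, and come from GENCODE M21 transcripts within RefSeq gene limits. Ighv13-2 (chr12:114357761-114358060) is the gene with the largest male excess, and Ighv6-3 (chr12:114391712-114392010) is its closest relative. Ighv9-3 (chr12:114140692-114140991) is the Ighv gene with the lowest adjusted p between XX and XY mice averaged over both gonadal sexes. Ighv1-75 (chr12:115833950-115834243) and Ighv5-12 (chr12:113702126-113702419) led the repertoire of a single mouse each. Ighv1-62-2 (chr12:115446417-115446710) is shown because it has no base in capitals.
Ighv13-2: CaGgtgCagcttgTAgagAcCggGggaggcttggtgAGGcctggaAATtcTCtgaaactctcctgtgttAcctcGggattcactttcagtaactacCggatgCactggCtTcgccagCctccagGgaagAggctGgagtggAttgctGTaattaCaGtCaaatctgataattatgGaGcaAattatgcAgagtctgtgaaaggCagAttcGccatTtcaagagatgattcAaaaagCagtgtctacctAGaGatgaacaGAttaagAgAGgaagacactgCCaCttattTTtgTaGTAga
Ighv6-3: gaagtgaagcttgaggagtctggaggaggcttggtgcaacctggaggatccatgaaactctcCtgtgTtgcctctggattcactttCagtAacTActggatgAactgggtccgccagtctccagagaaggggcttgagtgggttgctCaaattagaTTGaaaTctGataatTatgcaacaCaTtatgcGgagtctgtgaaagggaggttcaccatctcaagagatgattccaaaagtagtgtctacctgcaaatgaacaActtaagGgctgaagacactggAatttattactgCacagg
Ighv9-3: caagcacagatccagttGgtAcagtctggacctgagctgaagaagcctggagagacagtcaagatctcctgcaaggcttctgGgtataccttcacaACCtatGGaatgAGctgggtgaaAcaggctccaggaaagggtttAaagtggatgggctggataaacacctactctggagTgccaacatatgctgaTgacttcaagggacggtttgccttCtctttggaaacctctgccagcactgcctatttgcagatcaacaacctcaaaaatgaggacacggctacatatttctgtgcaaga
Ighv1-75: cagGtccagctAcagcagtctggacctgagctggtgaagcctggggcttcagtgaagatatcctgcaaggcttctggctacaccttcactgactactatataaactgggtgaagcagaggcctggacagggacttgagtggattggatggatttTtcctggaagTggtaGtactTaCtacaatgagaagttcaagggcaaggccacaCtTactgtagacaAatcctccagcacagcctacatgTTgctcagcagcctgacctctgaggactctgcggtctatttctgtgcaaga
Ighv5-12: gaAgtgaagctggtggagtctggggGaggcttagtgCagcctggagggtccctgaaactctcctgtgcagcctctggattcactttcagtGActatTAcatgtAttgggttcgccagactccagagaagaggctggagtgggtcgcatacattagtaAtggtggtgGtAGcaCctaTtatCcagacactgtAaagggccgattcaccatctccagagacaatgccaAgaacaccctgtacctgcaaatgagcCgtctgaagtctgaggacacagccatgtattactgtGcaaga
Ighv1-62-2: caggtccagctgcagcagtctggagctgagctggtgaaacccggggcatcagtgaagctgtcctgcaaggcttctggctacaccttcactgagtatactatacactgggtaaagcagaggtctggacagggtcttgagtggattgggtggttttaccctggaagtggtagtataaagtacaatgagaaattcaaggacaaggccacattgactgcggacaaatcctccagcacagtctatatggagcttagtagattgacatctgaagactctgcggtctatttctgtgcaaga

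Of the 120 genes measured, 120 were matched to a V exon among the 183 Ighv genes of GENCODE M21. Identity to the closest other Ighv gene ran from 75.3% to 100%, with a median of 95.4%, and 16 genes were at 98% or more. Ighv13-2 differed from Ighv6-3 at 61 of 310 aligned bases, and its longest stretch shared with any Ighv gene was 21 bases. Ighv1-62-2 and Ighv1-71 were identical over 313 bases, Ighv1-72 and Ighv1-62-3 differed at 3 bases, and Ighv11-1 and Ighv11-2 at 4. Levels of such near-identical copies are uncertain as values of a single gene, because what was read of the methods does not say how reads matching several copies were counted, nor with which strand setting.

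Ighv13-2 was the Ighv gene that separated the gonadal sexes in every mouse. Its RPKM was 44.7, 14.03, 14.2, 70.5 and 7.93 in XXF F1 to F5, and 16.9, 9.89, 10.8 and 19.4 in XYF F6 to F9. In XXM 2, 5, 6, 7 and 8 it was 567, 706, 1196, 2736 and 1685, and in XYM 9, 12, 13, 15 and 16 it was 3933, 3030, 2299, 1306 and 3104. The lowest male, XXM 2, was above the highest female, XXF F4, and the 10 males did not overlap with the 9 females. On the log2(RPKM + 1) scale the limma difference of males minus females was 6.55 (SE 0.37) averaged over XX and XY (adjusted p = 8.55e-09, adjusted by Benjamini-Hochberg over 14186 genes). It was 5.66 (SE 0.51, adjusted p = 2.02e-06) within XX and 7.45 (SE 0.54, adjusted p = 7.29e-07) within XY. The call was kept in 30 of 30 alternatives for the averaged difference, in 31 of 31 within XX and in 31 of 31 within XY. The range was 6.01 to 6.76, 5.32 to 6.07 and 6.66 to 7.83. In spleen RNA, more cells that use a V gene and more RNA per cell cannot be told apart. Nor can a batch that coincides with gonadal sex be told apart from this difference.

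**Figure D1:**
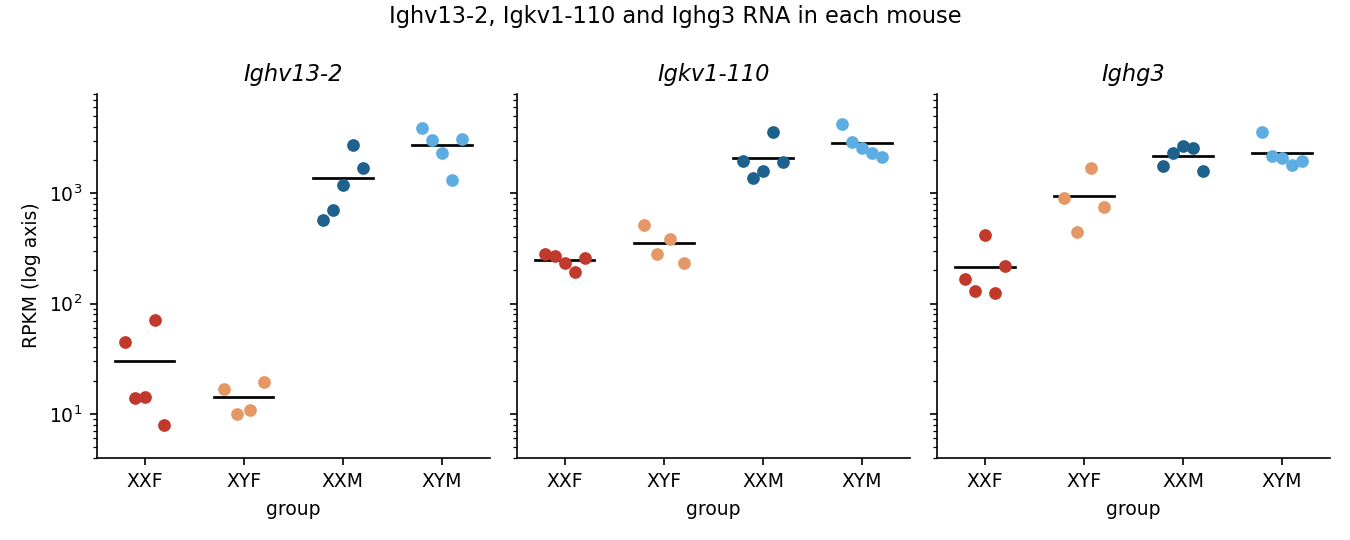
RPKM of Ighv13-2 in each of the 19 mice (points, log axis) by group, with the group mean. For Ighv13-2 the 9 females lie between 7.93 and 70.5 and the 10 males between 567 and 3933.

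No difference of Ighv13-2 between XX and XY mice passed the test in either gonadal sex. XX minus XY was 0.65 (SE 0.54, adjusted p = 0.515) in females and −1.13 (SE 0.51, adjusted p = 0.167) in males. The test of the difference between those effects gave 1.78 (SE 0.75, adjusted p = 0.189). Within XXM the levels spread from 567 to 2736, and within XYM from 1306 to 3933, so the male groups overlapped.

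As a share of the reads on all Ighv genes, Ighv13-2 took 0.114% (58 reads, Wilson 95% interval 0.0885% to 0.148%) in XYF F8, the lowest mouse. The highest female was XXF F4 with 2.57% (368 reads, 2.32% to 2.84%). The lowest male was XYM 13 with 16.3% (13768 reads, 16.1% to 16.6%) and the highest XYM 9 with 40.8% (22491 reads, 40.3% to 41.2%). These intervals cover counting error only. As a share of summed Ighv RPKM, which weights genes per length, Ighv13-2 made up 0.974% ± 0.945 (SD, n = 5) in XXF, 0.244% ± 0.136 (n = 4) in XYF, 31.0% ± 7.47 (n = 5) in XXM and 25.6% ± 10.2 (n = 5) in XYM. It was the most abundant Ighv gene in 9 of the 10 males, all but XXM 5, and in none of the 9 females.

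A light chain gene and a constant gene were also called higher in males, and their values in the same mice stand here beside Ighv13-2. The light chain variable gene Igkv1-110 was chosen after its values were seen. Its RPKM was 284, 270, 231, 191 and 261 in XXF, 512, 281, 385 and 233 in XYF, 1954, 1376, 1589, 3605 and 1925 in XXM, and 4209, 2892, 2541, 2333 and 2141 in XYM. All 10 males were above all 9 females for Igkv1-110 as for Ighv13-2, and XXM 7 and XYM 9 were the highest mouse of their group for both genes. The order of other mice differed between the genes. XXM 2 was the lowest XXM mouse for Ighv13-2 but not for Igkv1-110, and XYM 16 the lowest XYM mouse for Igkv1-110 but not for Ighv13-2. Males minus females was 3.01 (SE 0.19, adjusted p = 1.39e-08) for Igkv1-110, and whether the same cells carry both chains was not tested. Ighg3, the constant segment of IgG3, stood at 169, 131, 421, 125 and 217 RPKM in XXF and 898, 449, 1674 and 750 in XYF. It reached 1751, 2334, 2696, 2585 and 1583 in XXM and 3598, 2177, 2085, 1807 and 1974 in XYM. For Ighg3 the male and female ranges met, since XYF F8 was above XXM 8. Its difference of males minus females was 2.45 (SE 0.25), against 6.55 for Ighv13-2. Ighg3 had the largest difference of the 4 constant genes called higher in males, of 8 tested, and 1 constant gene was called lower.

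Other Ighv genes also differed between males and females on the deposited scale. Of 111 Ighv genes tested, 12 were called in males minus females averaged over XX and XY, 7 higher and 5 lower. A call needed an adjusted p under 0.1 and a difference over 1.5-fold. That is 10.8% of the Ighv genes, 6.31% higher and 4.5% lower, against 7.32% of all 14186 genes tested, 1.96% higher and 5.36% lower. At an unadjusted p under 0.05 limma counted 16 of the 111 Ighv genes, against 41.7% of all genes. The median difference was −0.07 over the Ighv genes and 0.02 over all genes. When RPKM was rescaled to the same summed Ighv RPKM in every mouse, 2 were higher and 41 lower, and when it was rescaled to the sum of the genes other than Ighv13-2, 9 were higher and 12 lower. The first of these scalings lowers every other gene in males by construction, because Ighv13-2 is part of the sum. The number called on the deposited scale was 19 without XYF F9 and XYM 9.

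Ighv5-9, a family 5 segment, had the next largest male excess among the Ighv genes called. Its RPKM was 11.3, 8.49, 21.3, 6.39 and 9.85 in XXF, 3.29, 33.6, 26.5 and 95.0 in XYF, 119, 29.2, 41.3, 124 and 49.6 in XXM, and 112, 260, 134, 11.7 and 68.1 in XYM. Every XXM mouse was above every XXF mouse, while XYM 15 lay below XYF F7, F8 and F9. Males minus females averaged 2.07 (SE 0.55, adjusted p = 0.0113) and kept its call in 30 of 30 alternatives. Ighv1-9, a family 1 segment, went the other way, at 100, 393, 251, 69.2 and 123 in XXF, 218, 529, 467 and 435 in XYF, 36.2, 42.8, 36.8, 88.5 and 72.0 in XXM, and 115, 312, 364, 761 and 178 in XYM. The XXM mice reached at most 88.5 RPKM, and XYM 15 had the highest Ighv1-9 level of any mouse. Its difference of males minus females averaged −1.01 (SE 0.36, adjusted p = 0.0419). The remaining genes called higher in males were Ighv2-6 (1.19), Ighv1-66 (1.03), Ighv1-53 (1.01), Ighv2-5 (0.80) and Ighv3-3 (0.67). Those called lower were Ighv5-4 (−1.11), Ighv3-1 (−0.88), Ighv8-12 (−0.85) and Ighv11-1 (−0.69). Of these 12 calls 9 were kept without each mouse in turn. Ighv1-66 lost its call without XXF F2, XXF F3, XYF F6, XYF F7, XXM 7, XXM 8, XYM 12 or XYM 16, at differences of 0.85 to 0.997. Ighv2-6 lost it without XYF F6 (1.05, adjusted p = 0.116), and Ighv3-3 without XXF F3, XYF F7 or XYM 13, at 0.57 to 0.58. Ighv2-6 also lost its call by limma-voom on recovered reads. After rescaling to the same Ighv sum, Ighv13-2 and Ighv5-9 alone kept their higher call. Without XYF F6 and XYF F9 together the calls also ended for Ighv2-5 (0.76, adjusted p = 0.112), Ighv3-1 (−0.64, adjusted p = 0.164), Ighv2-6 (1.14, adjusted p = 0.128) and Ighv1-66 (1.0016, adjusted p = 0.145).

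Within XX, where the tag of XXM holds for all males, males and females differed in 3 of the 111 Ighv genes, 2 higher in males (Ighv13-2 and Ighv5-9, 2.44) and 1 lower (Ighv1-9, −1.55). Of all genes 4.22% were called there, 1.3% higher and 2.91% lower. At an unadjusted p under 0.05 limma counted 13 of the 111 Ighv genes, against 19.8% of all genes. The number of Ighv genes called was 1 without XXF F2 and 5 without XYM 9, and 6 without XYF F9 and XYM 9. With the 2 compared groups alone the number rose. By limma-voom on recovered reads, or with no filter on low values, both Ighv5-9 and Ighv1-9 lost their calls. Ighv5-9 lost its call within XX without XXF F1, F2, F4 or F5 or XXM 2 or 7 (2.19 to 2.46, adjusted p 0.114 to 0.142). Ighv1-9 lost it without XXF F2 or F3 or XXM 2, 5 or 6 (−1.49 to −1.21, adjusted p 0.126 to 0.175). Rescaled to the same Ighv sum, 3 genes were higher and 19 lower in XXM, and with Ighv13-2 left out of the sum 4 were higher and 4 lower.

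Within XY, 11 of the 111 were called, 8 higher and 3 lower in males. This share is below that of all genes, of which 15.8% were called, 7.63% higher and 8.13% lower. At an unadjusted p under 0.05 limma counted 14 of the 111 Ighv genes, against 42.4% of all genes. Beside Ighv13-2 the higher genes were Ighv2-6 (1.65), Ighv1-53 (1.36), Ighv7-4 (1.29), Ighv14-1 (1.28), Ighv3-3 (1.16), Ighv14-2 (1.13) and Ighv6-5 (0.63), and the lower ones Ighv1-62-2 (−1.50), Ighv5-16 (−1.15) and Ighv1-73 (−0.61), the last listed to complete the count. Rescaled to the same Ighv sum 2 were higher and 25 lower, and with Ighv13-2 left out of it 6 were higher and 12 lower. The number called on the deposited scale was 6 without XYF F7, 7 without XYM 16, 5 without XYF F6 and XYF F9, and 20 without XYF F9 and XYM 9. Ighv13-2, Ighv1-53 and Ighv3-3 kept their calls without each mouse in turn. Relative to the summed Ighv RPKM the calls ended for Ighv1-53 (0.60) and Ighv3-3 (0.40), and rescaled to the same Ighv sum the call ended for Ighv1-53. Ighv7-4 lost its call without XYF F6 (1.12, adjusted p = 0.110), and Ighv2-6 without XYF F6 (1.38) or F7 (1.55). Ighv14-1 lost it without XYF F6, F7 or F9 or XYM 16 (1.01 to 1.19), and Ighv14-2 without XYF F6 or F7 or XYM 16 (0.82 to 1.15). Without XYF F6 and XYF F9 together the calls ended for Ighv2-6 (1.56), Ighv7-4 (0.88), Ighv14-1 (0.77), Ighv14-2 (1.0165), Ighv6-5 (0.84), Ighv1-62-2 (−1.88) and Ighv5-16 (−1.21). Ighv6-5 lost its call without XYF F7 or F8 or XYM 9, 12 or 16 (0.49 to 0.60), and kept it in 15 of 31 alternatives. It lost it by limma-voom, with no filter and after each rescaling, and turned to −0.14 relative to the summed Ighv RPKM. Among the lower genes the calls ended for Ighv1-62-2 without XYF F6 or F7 or XYM 12, 15 or 16 (−1.59 to −1.20), for Ighv5-16 without XYF F8 or F9 or XYM 9, 13 or 15 (−1.21 to −0.79), and for Ighv1-73 without XYF F7 or F8 or XYM 12, 15 or 16 (−0.60 to −0.40).

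Summed over the 120 genes, the mean level of Ighv RNA was higher in XY than in XX mice of either gonadal sex. The sum was 5055, 3120, 2099, 2701 and 3147 RPKM in XXF F1 to F5, and 3878, 4957, 9326 and 8533 in XYF F6 to F9. It was 1774, 3575, 3805, 6711 and 5412 in the XXM mice and 9497, 11700, 14002, 7717 and 11285 in the XYM mice. The male groups did not overlap, with XXM 7 below XYM 15, and in females XXF F1 alone was above XYF F6 and F7. Means were 3225 ± 1108 (SD, n = 5) in XXF, 6673 ± 2662 (n = 4) in XYF, 4255 ± 1884 (n = 5) in XXM and 10840 ± 2371 (n = 5) in XYM. Without Ighv13-2 they were 3194, 6659, 2877 and 8106, so that the XXM mean was under the XXF mean once this gene was set aside. The sums are a description of the members together and were given no test.

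**Figure D2:**
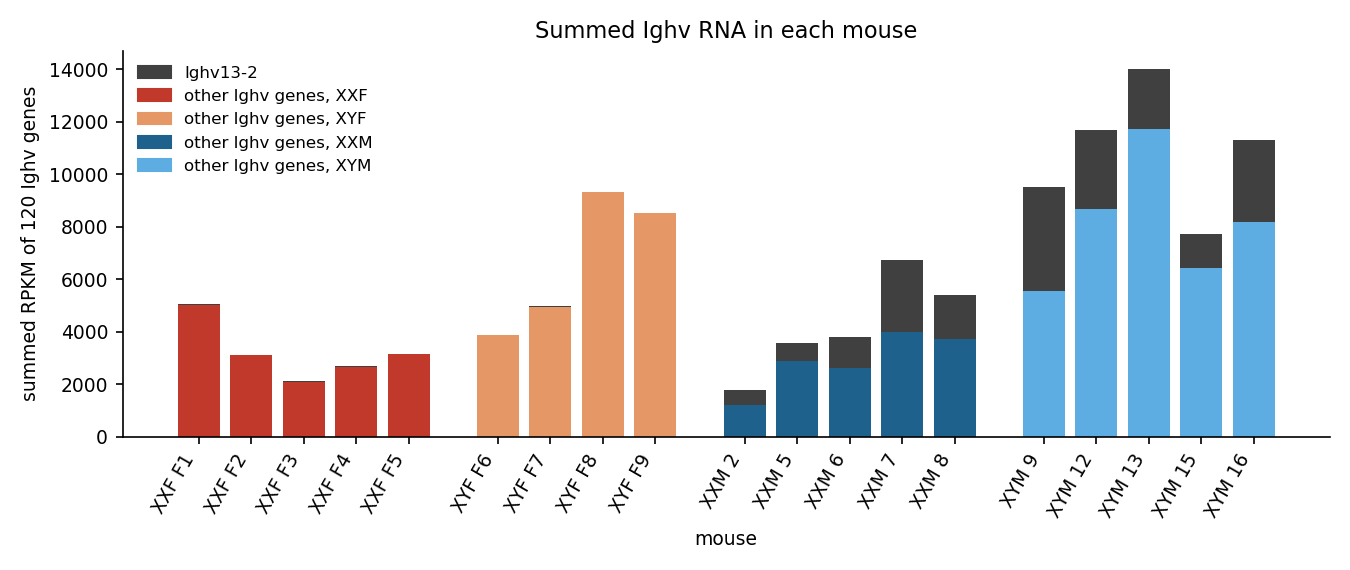
Summed RPKM of the 120 Ighv genes in each mouse by group, split into Ighv13-2 and the other genes. The XYM mice reach 7717 to 14002, above the XXM mice at 1774 to 6711, and Ighv13-2 is a visible part of the sum in males only.

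Gene by gene, averaged over both gonadal sexes, 51 of 111 Ighv genes were lower in XX than in XY mice and 0 were higher, whereas after rescaling to the same Ighv sum 8 were higher and 0 lower. Among all genes tested 1.72% were called in this comparison and 1.21% were called lower. By limma-voom on recovered reads 48 were lower and 0 higher, and at an unadjusted p under 0.05 limma counted 76 Ighv genes, against 22.8% of all genes. The median difference was −1.06 over the Ighv genes and 0.03 over all genes, and 6 of 111 Ighv genes had a difference above 0. The count was 32 without XYF F9 and 31 without XYF F6 and XYF F9, and 31 of the 51 calls were kept without each mouse in turn. The comparisons within each gonadal sex below use the same mice.

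Ighv9-3, a family 9 segment, had the lowest adjusted p of the Ighv genes in the averaged comparison. Its RPKM was 141, 80.1, 36.3, 98.9 and 105 in XXF, 316, 217, 191 and 425 in XYF, 26.1, 56.6, 73.7, 134 and 88.9 in XXM, and 689, 441, 272, 144 and 285 in XYM. Within each gonadal sex every XX mouse was below every XY mouse, although XXM 7 and XYM 15 were close. The averaged difference was −1.97 (SE 0.32, adjusted p = 0.00228), and after rescaling to the same Ighv sum it was −0.74 (adjusted p = 0.116) and not called. Ighv1-26, the family 1 segment with the highest mean over the 19 mice though the highest by group in XYM alone, stood at 178, 129, 97.2, 162 and 150 in XXF, 226, 265, 570 and 401 in XYF, 41.8, 124, 247, 162 and 170 in XXM, and 263, 595, 882, 285 and 675 in XYM. Here too the XX and XY mice of either gonadal sex did not overlap, with an averaged difference of −1.59 (SE 0.30, adjusted p = 0.00750). The other genes of largest averaged difference were Ighv1-42 (−2.19), Ighv1-84 (−1.96), Ighv1-85 (−1.92), Ighv1-9 (−1.89), Ighv14-4 (−1.83), Ighv1-36 (−1.82), Ighv8-8 (−1.80), Ighv1-71 (−1.79) and Ighv5-16 (−1.71). Of these only Ighv14-4 lost its call without 1 mouse, XYF F9 (−1.84, adjusted p = 0.105), or without XYF F6 and XYF F9 (−1.66, adjusted p = 0.263), and all of them lost it after rescaling to the same Ighv sum. Relative to the mean log2 Ighv value, Ighv9-3, Ighv1-42 and Ighv5-16 kept their lower call. Ighv1-71 is identical in its V exon to Ighv1-62-2, which had −1.40, so the values of these copies are uncertain.

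In females 5 of 111 Ighv genes were lower in XX and 0 higher, whereas after rescaling to the same Ighv sum 1 was higher and 1 lower. Of all genes 1.38% were called and 0.712% called lower. By limma-voom on recovered reads 6 were lower and 0 higher, and at an unadjusted p under 0.05 limma counted 37, against 18.7% of all genes. The median difference was −0.83 over the Ighv genes and 0.06 over all genes. The 5 genes were Ighv1-84 (−2.61, SE 0.62, adjusted p = 0.0531), Ighv5-16 (−2.23, SE 0.49, adjusted p = 0.0376), Ighv1-77 (−1.98, SE 0.52, adjusted p = 0.0773), Ighv9-3 (−1.68, SE 0.47, adjusted p = 0.0938) and Ighv1-61 (−1.36, SE 0.34, adjusted p = 0.0686). In each of these 5 genes every XXF mouse was below every XYF mouse. Of the 111 Ighv genes 12 (10.8%) had every XXF mouse below every XYF mouse, against 2.09% of all genes, and 0 had every XXF mouse above, against 3.56% of all genes.

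No female call held without each mouse in turn, and the number of Ighv genes called moved widely. It was 17 without XYF F7 and 14 without XYM 9, 2 without each of XXF F2, F3, F4 and F5, and 1 without XYF F9. It was 1 without XYF F6 and XYF F9, where none of the 5 genes kept its call, and 2 without XYF F9 and XYM 9. Ighv5-16 lost its call without XYF F9 (−2.02, adjusted p = 0.168), and Ighv1-84 without XXF F2 or F5 or XYF F9 (−2.55 to −2.34, adjusted p 0.105 to 0.215). Ighv1-61 lost it without XXF F2, F3, F4 or F5 or XYF F6 or F9 (−1.42 to −1.27, adjusted p 0.105 to 0.178). Ighv1-77 lost it without the same 6 mice or XYF F8 (−2.23 to −1.77, adjusted p 0.101 to 0.197). Ighv9-3 lost it without any XXF mouse, XYF F6 or F9, XXM 5, 6 or 8, or XYM 12, 13 or 16 (−1.87 to −1.38, adjusted p 0.103 to 0.351).

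In males 38 of 111 Ighv genes were lower in XX and 0 higher, whereas after rescaling to the same Ighv sum 1 was higher and 1 lower. Of all genes 2.96% were called and 1.83% called lower. By limma-voom on recovered reads 21 were lower and 0 higher, and at an unadjusted p under 0.05 limma counted 67, against 27.1% of all genes. The median difference was −1.13 over the Ighv genes and 0.01 over all genes. Of the 111 Ighv genes 21 (18.9%) had every XXM mouse below every XYM mouse, against 1.8% of all genes, and 0 had every XXM mouse above, against 2.27% of all genes. The largest differences called were Ighv14-4 (−2.61), Ighv2-3 (−2.54), Ighv1-9 (−2.43), Ighv8-8 (−2.33), Ighv9-3 (−2.25), Ighv1-37 (−2.23), Ighv3-6 (−2.15), Ighv3-5 (−2.13), Ighv1-36 (−2.11) and Ighv1-42 (−2.10). Ighv1-9 (SE 0.49, adjusted p = 0.0275) and Ighv9-3 (SE 0.44, adjusted p = 0.0247) kept their calls without each mouse in turn, as did 6 of the 38 genes in all. Ighv8-8 lost its call without XXM 2 (−2.11, adjusted p = 0.1002).

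A batch that coincides with the extra tag of XXM cannot be told apart from a difference of XXM and XYM. The male count also moved with single mice. It was 59 without XYM 15, 13 without XXM 6, 12 without XYM 12, 10 without XXM 5, 9 without XYM 16, and 7 without XXM 2 or XYM 13. The other 7 of the 10 genes named each lost the call without XXM 2, 5 or 6 or XYM 13 or 16. All of them but Ighv14-4 also lost it without XYM 12, Ighv1-37 and Ighv3-5 without XXF F5, and Ighv1-42 without XXF F4. Their differences in those fits ran from −2.86 to −1.41, with adjusted p from 0.1001 to 0.217.

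Whether the XX minus XY difference itself differed between females and males was tested for each gene by limma, and 0 of 111 Ighv genes were called, against 0.0846% of all genes. At an unadjusted p under 0.05 there were 10, against 21% of all genes, and by limma-voom on recovered reads 0 were called and 8 had an unadjusted p under 0.05. The median over the Ighv genes was 0.26, and 0.02 over all genes. The count was 8 without XYM 9, 3 without XXF F3, XYF F8 or XYM 15, and 4 without XYF F9 and XYM 9. The larger number of calls in males than in females is therefore not shown to be a difference between the gonadal sexes.

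Ighv use was also compared after the difference in the Ighv sum between mice was taken out, by rescaling RPKM to the same Ighv sum in every mouse before the logarithm. The median of XX minus XY was then 0.06 in females, 0.04 in males and −0.03 for their average. Averaged over both, 8 Ighv genes were higher in XX, led by Ighv8-5 (1.61), Ighv7-4 (1.10) and Ighv11-2 (1.06), and the others were Ighv8-6 (0.85), Ighv10-1 (0.73), Ighv2-5 (0.71), Ighv3-3 (0.69) and Ighv6-6 (0.63). Of these, Ighv8-5, Ighv8-6 and Ighv6-6 were chosen after their values were seen. None of the 8 was among the 51 genes called lower on the deposited scale. In females Ighv7-4 was higher (1.96, adjusted p = 0.00662) and Ighv5-16 lower (−1.24, adjusted p = 0.0451) after this rescaling. In males Ighv2-5 was higher (1.22, adjusted p = 0.0369), and Ighv3-4, chosen after its values were seen, was lower (−1.09, adjusted p = 0.0935). Subtracting the log2 of the sum instead called 23 genes higher and 0 lower averaged over both gonadal sexes, and 17 of those 23 had a mean RPKM under 5. For such genes the added 1 in log2(RPKM + 1) keeps the value from following the sum, by construction.

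**Figure D3:**
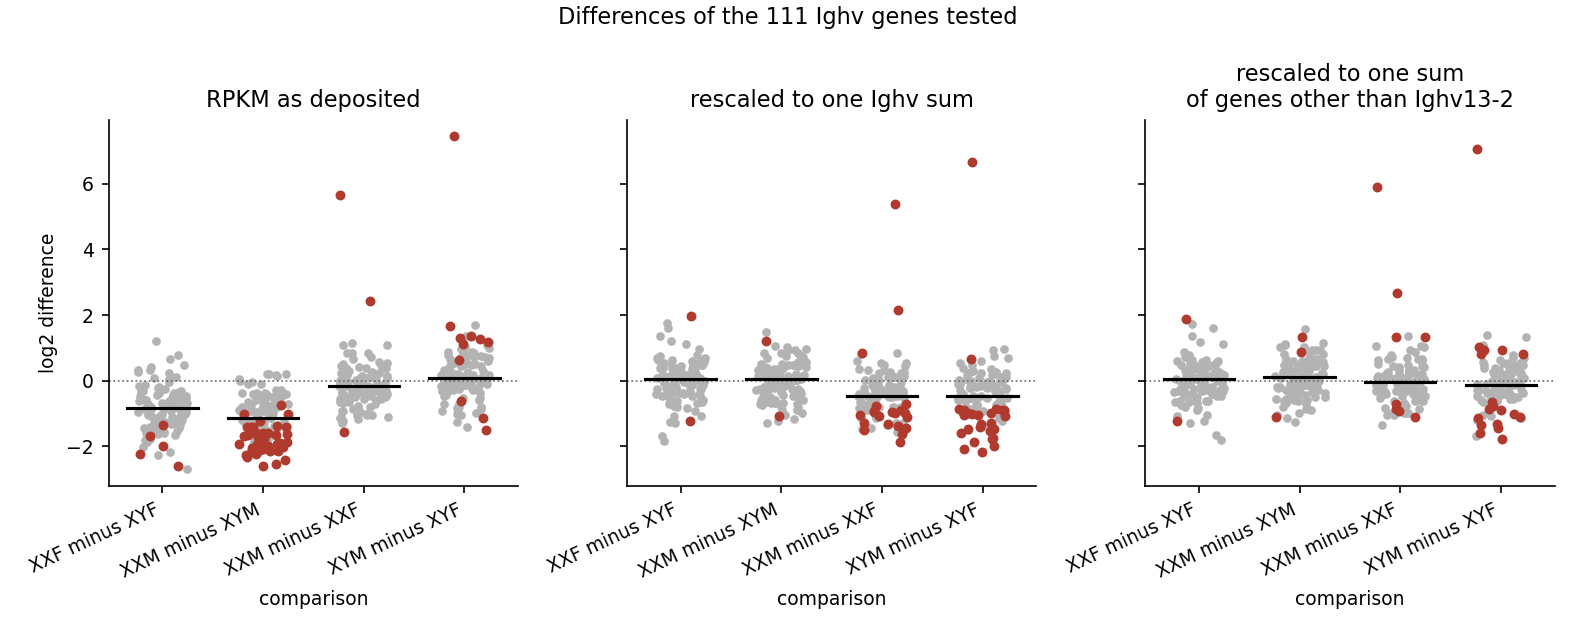
Log2 differences of the 111 Ighv genes tested (points, called genes in red, bar at the median) in 4 comparisons of 2 groups, on the deposited scale, rescaled to the same Ighv sum, and rescaled to the sum of the genes other than Ighv13-2. On the deposited scale the XX minus XY medians are −0.83 in females and −1.13 in males with all called genes below 0, and after rescaling to the same sum both medians are near 0 with 1 gene called higher and 1 lower in each.

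The repertoire of the males was less even than that of the females. Evenness is given as the effective number of Ighv genes, the exponential of the Shannon entropy of their shares in summed Ighv RPKM. It was 39.8, 46.2, 45.1, 56.3 and 51.0 in XXF F1 to F5 and 51.7, 51.1, 52.2 and 53.4 in XYF F6 to F9. It was 25.9, 22.1, 27.8, 19.8 and 27.6 in XXM and 16.7, 30.6, 35.8, 34.3 and 28.9 in XYM. All 10 males were under all 9 females, and XYM 9, the mouse with the largest Ighv13-2 share, was the lowest. Group means were 47.7 ± 6.24 (SD, n = 5) in XXF, 52.1 ± 0.963 (n = 4) in XYF, 24.7 ± 3.56 (n = 5) in XXM and 29.3 ± 7.57 (n = 5) in XYM. Without Ighv13-2 the means were 47.0, 51.7, 44.9 and 42.8, and 4 of 5 XXM mice reached 47.6 to 51.6, inside the female range. The exception was XXM 5, at 25.5. The XYM mice, at 38.2 to 46.8, stayed below all XYF mice, at 50.8 to 53.0, without Ighv13-2. Counted over the 103 genes with the exact spelling, the effective number was 40.3 in XXF, 44.2 in XYF, 19.96 in XXM and 24.1 in XYM.

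**Figure D4:**
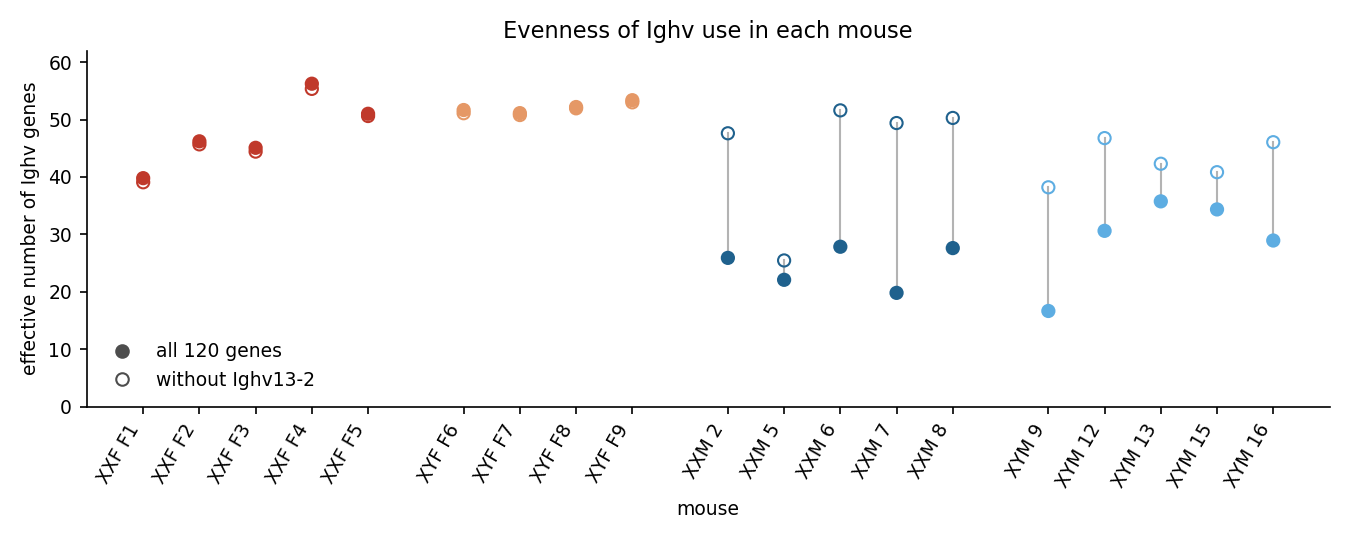
Effective number of Ighv genes in each mouse by group, over all 120 genes (filled points) and without Ighv13-2 (open points). Over all genes the males lie between 16.7 and 35.8 and the females between 39.8 and 56.3. Without Ighv13-2 the group means, which are not drawn, lie between 42.8 and 51.7.

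The leading Ighv gene differed from mouse to mouse in females. In XXF it was Ighv1-75 in F1 (20.3% of summed Ighv RPKM), Ighv1-9 in F2 (12.6%) and F3 (11.96%), Ighv6-3 in F4 (6.41%) and Ighv3-6 in F5 (6.21%). In XYF it was Ighv9-3 in F6 (8.15%), Ighv1-9 in F7 (10.7%) and F9 (5.10%), and Ighv1-26 in F8 (6.11%). Among males the leader was Ighv13-2 in all but XXM 5, where Ighv5-12 held 26.7% and Ighv13-2 came next with 19.7%. The mean leading share was 11.5% ± 5.74 (SD, n = 5) in XXF, 7.51% ± 2.46 (n = 4) in XYF, 32.4% ± 5.13 (n = 5) in XXM and 25.6% ± 10.2 (n = 5) in XYM. With Ighv13-2 set aside it was 11.6%, 7.53%, 13.51% and 11.3%, and the leaders of the XYM mice were then Ighv5-12, Ighv6-3, Ighv5-9-1, Ighv1-9 and Ighv1-53. That XXM mean rests on XXM 5, at 33.3%, while the other XXM mice lay between 7.33% and 9.88%. The 10 most abundant Ighv genes of a mouse together held 39.7% to 51.0% of the sum in females and 55.9% to 72.3% in males.

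**Figure D5:**
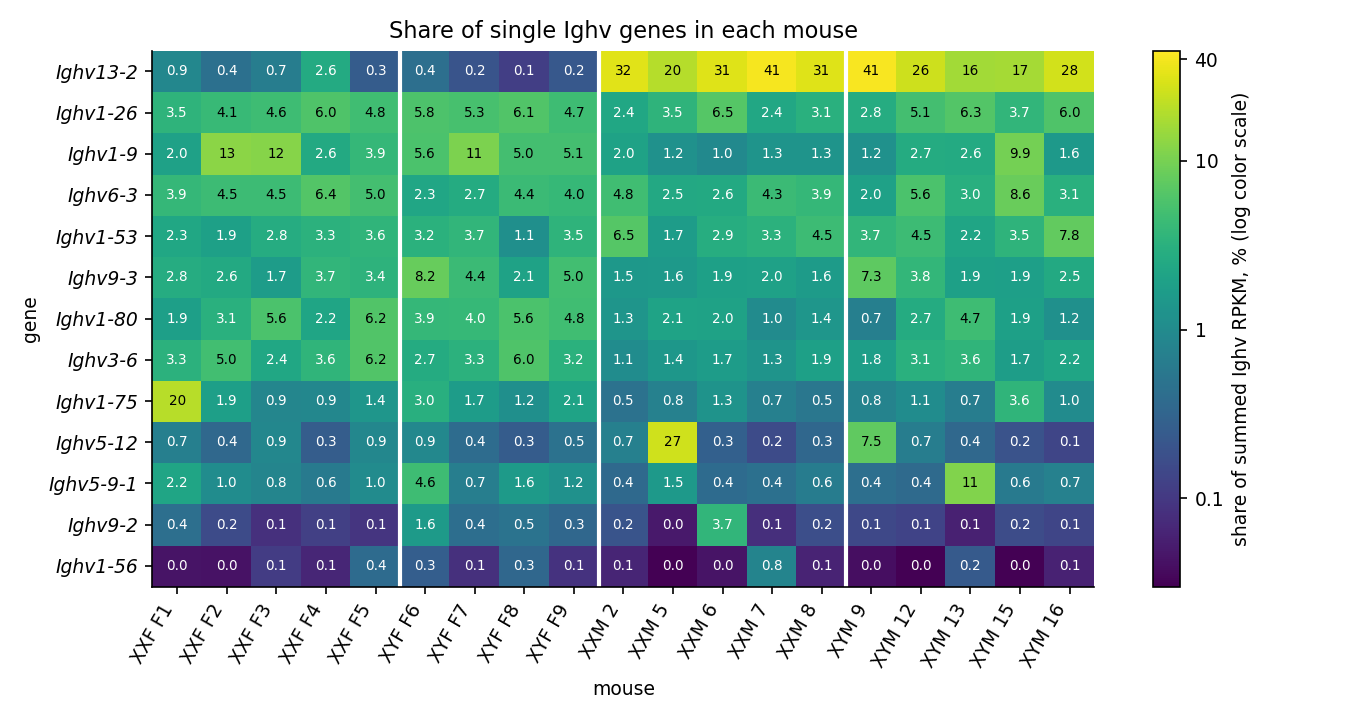
Share of summed Ighv RPKM, in percent, taken by some of the named Ighv genes in each of the 19 mice. Ighv13-2 takes 16.4% to 41.4% in males and 0.115% to 2.61% in females, and Ighv1-75 in XXF F1 and Ighv5-12 in XXM 5 take 20.3% and 26.7%.

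Several Ighv genes were high in a single mouse and far lower in the others of its group. Ighv1-75 stood at 1024 RPKM in XXF F1, while the other 18 mice ran from 8.42 in XXM 2 to 281 in XYM 15. Ighv5-12 stood at 955 in XXM 5 and 709 in XYM 9, while the other 17 mice ran from 7.04 to 78.4. The 2 mice belong to different male groups, and no group difference in Ighv5-12 was called (XX minus XY in males −0.88, SE 1.09, adjusted p = 0.608). Ighv5-9-1 stood at 1567 in XYM 13 and at most 179 in the other 18 mice, and it is the most abundant family 5 gene by its mean over the 19 mice because of that mouse. Ighv2-6 stood at 357 and Ighv1-37 at 110 in XYM 15, against at most 38.4 and 10.6 in the others. Ighv9-2 reached 139 in XXM 6 and Ighv1-56 53.9 in XXM 7. The 5 genes with the largest spread within groups were Ighv5-12, Ighv1-56, Ighv5-9-1, Ighv9-2 and Ighv1-75. How many cells lie behind such a level was not measured.

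Ighv1-53, Ighv6-3, Ighv3-6 and Ighv1-80 were among the abundant genes. Ighv1-53 stood at 117, 60.6, 57.9, 88.2 and 114 in XXF, 124, 185, 106 and 294 in XYF, 116, 60.9, 110, 220 and 243 in XXM, and 347, 524, 311, 269 and 884 in XYM. All XYM mice but XYM 15 were above all mice of the other groups, and XYM 16 was the highest. Ighv6-3, the closest relative of Ighv13-2, stood at 199, 141, 93.7, 173 and 159 in XXF, 87.6, 132, 412 and 343 in XYF, 85.3, 88.0, 97.7, 291 and 213 in XXM, and 187, 660, 426, 660 and 355 in XYM. Its male and female ranges overlapped in both sex chromosome types, and males minus females averaged 0.45 (SE 0.33, adjusted p = 0.304), so no male excess was called in this relative. Ighv3-6 ran from 18.7 in XXM 2 to 558 in XYF F8, and Ighv1-80 from 23.9 in XXM 2 to 658 in XYM 13. XXM 2 was the lowest of the 19 mice for Ighv3-6, Ighv1-80, Ighv1-26 and Ighv6-3, and it also had the fewest Ighv reads and 22 Ighv genes without a read.

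By family, the number after Ighv in the symbol, the 120 genes fall into 16 groups. Family 1, the largest with 60 genes, took 55.4% ± 4.53 (SD, n = 5) of summed Ighv RPKM in XXF, 58.0% ± 5.52 (n = 4) in XYF, 36.2% ± 4.00025 (n = 5) in XXM and 40.9% ± 9.25 (n = 5) in XYM. Its share was 50.2% to 63.3% in the females and 25.02% to 49.0% in the males, and without Ighv13-2 the means were 56.0%, 58.1%, 52.8% and 54.4%. Family 13 consists of Ighv13-2 and Ighv13-1, and the latter had 10 reads, all in a single XYM mouse. Family 3 without Ighv13-2 in the sum took 5.11% in XXF, 5.39% in XYF, 2.79% in XXM and 4.205% in XYM, and family 8 took 5.09%, 4.60%, 2.91% and 3.34%. Family 5 was 31.4% in XXM 5, the mouse led by Ighv5-12, and 16.4% in XYM 13, the mouse with the Ighv5-9-1 peak. Families 4, 10, 12 and 15 are led by Ighv4-1, Ighv10-1, Ighv12-3 and Ighv15-2, and each took at most 4.18% of the sum in any mouse.

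Along chromosome 12 the 120 genes were ordered from the end near the D segments and split into 3 parts of 40 genes. The middle part starts with Ighv13-2 and took 56.4% of summed Ighv RPKM in XXM and 52.9% in XYM, against 36.7% in XXF and 35.3% in XYF. The distal part took 35.5%, 34.5%, 20.4% and 23.2% in XXF, XYF, XXM and XYM. Without Ighv13-2 the middle part took 36.1%, 35.2%, 37.2% and 36.3%, and the distal part 35.8%, 34.6%, 29.8% and 31.0%, in the same order. Genes called lower in XX than in XY mice lay in all 3 parts on the deposited scale, whereas in the averaged comparison 0 were called lower after rescaling to the same Ighv sum and 5 relative to the mean log2 Ighv value. Averaged over both gonadal sexes 17 of 36 tested genes of the proximal part, 13 of 38 of the middle part and 21 of 37 of the distal part were called lower. Their medians were −1.11, −0.99 and −1.06.

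Ighv7-1, the gene tied to phosphorylcholine antibodies, was not analysed here, and its relatives Ighv7-4 and Ighv7-2 had low levels. Ighv7-4 stood at 10.4, 3.03, 3.40, 5.07 and 1.25 RPKM in XXF, 0.489, 1.12, 2.76 and 0.723 in XYF, 0.455, 2.39, 2.22, 3.78 and 2.74 in XXM, and 5.35, 5.72, 3.86, 1.56 and 6.24 in XYM. All XYF mice were under 3 RPKM, and XXF F1 was the highest mouse. On the deposited scale XX minus XY was 1.20 (SE 0.43, adjusted p = 0.166) in females and −0.75 (SE 0.40, adjusted p = 0.229) in males, and the test of the difference between them gave 1.95 (adjusted p = 0.133). Ighv7-2 was under 1 RPKM in every mouse. Ighv7-4 and Ighv7-2 together, without Ighv7-1 and Ighv7-3, took 0.152% of summed Ighv RPKM in XXF, 0.0209% in XYF, 0.0583% in XXM and 0.0436% in XYM.

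Ighv11-2 stood at 20.5, 21.1, 9.32, 17.8 and 14.9 in XXF, 4.53, 28.2, 8.36 and 17.3 in XYF, 7.48, 11.6, 8.07, 14.9 and 4.85 in XXM, and 7.13, 15.2, 26.5, 7.001 and 22.4 in XYM. The 4 groups overlapped, and no difference in Ighv11-2 was called on the deposited scale. Its near copy Ighv11-1 was under 5 RPKM in every mouse, and it was called lower in males (−0.69, SE 0.23, adjusted p = 0.0323). Ighv12-3 ran from 0.842 in XXM 2 to 14.99 in XYM 12, with XYF F6 at 1.21 and XXF F3 at 1.86. No difference in Ighv12-3 was called. The light chains that pair with Ighv7-1 in such antibodies, Igkv7-33, Igkv8-28 and Igkv2-137, had their own differences. In XX minus XY averaged over both gonadal sexes 1 of 3 was called higher, Igkv7-33 (2.17, SE 0.57, adjusted p = 0.0483), and 0 lower. Within each gonadal sex 1 of the 3 was called higher in females and 0 in males. Igkv7-33 overlapped between XXM, at 88.8 to 302 RPKM, and XYM, at 54.8 to 204. In XYF it was 1.52 in XYF F8 and 46.0 to 169 in the other mice. Summed, these 3 light chains reached 932 ± 225 RPKM (SD, n = 5) in XXF, 359 ± 130 (n = 4) in XYF, 481 ± 123 (n = 5) in XXM and 562 ± 140 (n = 5) in XYM. The mean of Igkv7-33 was 500 in XXF, 72.5 in XYF, 188 in XXM and 126 in XYM, the highest of the 3 in XXF alone.

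The constant segments that follow an Ighv gene in the transcript were compared with the summed Ighv level. Summed over 8 constant genes, of which Ighm was the most abundant, the level was 8049 ± 1798 RPKM (SD, n = 5) in XXF, 14165 ± 2282 (n = 4) in XYF, 10874 ± 1519 (n = 5) in XXM and 15054 ± 1867 (n = 5) in XYM. As for the Ighv sum, both XY means were above both XX means. Averaged over both gonadal sexes 3 of 8 were lower in XX and 0 higher: Ighg2c (−1.97), Ighg2b (−1.40) and Ighg3 (−1.11). In females 4 of 8 were lower and 0 higher, and in males 1 was lower, Ighg2c. In males minus females 4 of 8 were higher, Ighg3, Ighg2b (1.68), Ighd (0.97) and Ighg1 (0.70), and 1 was lower, Ighg2c (−1.08). Ighm, the segment used before switching, was called in none of these.

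Markers of plasma cells had higher mean sums in XY than in XX mice, as the Ighv genes did, but overlapped between the male groups. Their summed RPKM was 885, 1660, 1654, 795 and 1086 in XXF, 1949, 1668, 2044 and 1478 in XYF, 1547, 1477, 1118, 1446 and 1359 in XXM, and 1708, 1194, 1697, 1847 and 1230 in XYM. The means were 1216 in XXF, 1785 in XYF, 1390 in XXM and 1535 in XYM. XXM and XYM overlapped here, while their Ighv sums did not. Jchain was the most abundant of the 10 genes and none was at 0 in every mouse. In XX minus XY averaged over both gonadal sexes 1 of 10 was lower, Derl3 (−0.62), and in females 2 were lower, Tnfrsf17 (−0.92) and Derl3 (−0.78). In males minus females 1 of 10 was higher, Irf4 (0.73). The part of plasma cells in the Ighv differences was not tested.

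No B cell marker was called lower in XX mice. Their summed RPKM was 3307, 3131, 2720, 3113 and 3041 in XXF, 1727, 2802, 2906 and 1480 in XYF, 4343, 4775, 4284, 4358 and 4011 in XXM, and 2523, 4091, 3402, 4229 and 3898 in XYM. XYF F6, XYF F9 and XYM 9 were the lowest mice. Of 10 genes, Cd79b being the most abundant, 1 was higher in XX averaged over both gonadal sexes, Cr2 (0.59), 2 in females and 1 in males, and 0 were lower. In males minus females averaged over XX and XY 8 of 10 were higher and 0 lower, with 1 of 10 higher within XX and 9 of 10 within XY. Their median difference was 0.49 within XX and 0.83 within XY, and the sum was higher in every XXM than in every XXF mouse. Their part in the Ighv results was not tested.

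T cell markers went the other way between males and females, with 7 of 8 lower in males averaged over XX and XY. In XX minus XY, 3 of 8 were lower in males and none was called in females. Their summed RPKM, led by Cd3g though by the mean of Lck in XXM, was 830, 1185, 1024, 855 and 1026 in XXF, 831, 1063, 799 and 408 in XYF, 388, 410, 359, 287 and 279 in XXM, and 255, 435, 401, 544 and 457 in XYM. Erythroid markers, led by Hbb-bs with 7 of 8 genes listed, summed to 12781, 19665, 28758, 22813 and 16296 in XXF, 47966, 20122, 15753 and 36375 in XYF, 12344, 9715, 7610, 7311 and 14489 in XXM, and 14629, 2296, 6835, 5033 and 1585 in XYM. All 7 were lower in males averaged over XX and XY and within XY, where the females include XYF F6 and XYF F9, and none was called within XX. In XX minus XY, 2 of the 7 erythroid genes were higher in males and none was called in females. NK cell markers, led by Gzma, summed to 481, 568, 533, 648 and 614 in XXF, 224, 345, 243 and 115 in XYF, 473, 387, 423, 419 and 375 in XXM, and 91.6, 244, 237, 348 and 188 in XYM. They were opposite to the Ighv sum between XX and XY mice, with 5 of 6 higher in XX averaged over both gonadal sexes. Myeloid markers, led by S100a9, summed to 5362, 4279, 5504, 6111 and 5125 in XXF, 11908, 16402, 7617 and 46137 in XYF, 6501, 6002, 6540, 5098 and 4428 in XXM, and 46812, 3368, 8560, 4233 and 3668 in XYM. XYF F9 and XYM 9 were the highest mice for myeloid markers and had Ighv sums of 8533 and 9497, inside the range of the other XY mice. Of 8 myeloid genes 1 was lower in XX averaged over both gonadal sexes, Ly6c2 (−0.75). No gene of these lists was at 0 in every mouse, and the part of these cell types in the Ighv results was not tested.

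Genes that act on the heavy chain locus were taken as 2 further lists. Of 8 transcription factors of heavy chain genes in B cells, led by Pax5, 3 were higher in males (Ebf1 0.90, Irf4 0.73 and Pax5 0.66) and 0 lower. In XX minus XY averaged over both gonadal sexes none of the 8 was called by limma, while the Ighv genes were lower in 51 of 111 on the deposited scale and higher in 8 after rescaling to the same Ighv sum. In males 1 of the 8 transcription factors was called higher in XX, and in females none was called. Of 3 genes of V(D)J recombination, 2 passed the filter and 0 were called, and their summed level, mostly Dntt, was 1.93 to 11.6 RPKM.

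Mouse by mouse, the order of the Ighv genes by level was compared for every pair of mice. Spearman's rho across the 111 genes that passed the filter had a median of 0.906 over the 10 pairs of XXF mice, 0.889 over the 6 pairs of XYF mice, 0.894 over the 10 pairs of XXM mice and 0.866 over the 10 pairs of XYM mice. Between groups the medians ran from 0.831 for XYF with XXM to 0.878 for XXM with XYM. These values are across genes, which are not independent replicates, and pairs share mice, so no test is given.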

How the data were processed

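RNA-seq of splenocytes from 19 FCG mice was processed by the authors with Subread and featureCounts on mm10, and the deposited values are log2(RPKM + 1) per gene and mouse. RPKM was recovered from them by inverting the logarithm, and whole reads and library sizes from the spacing of the values, within 0.002 reads for 21315 of 21317 genes with a read. Genes with RPKM of 0.5 or more in 4 or more mice were tested with limma 3.58.1 in R 4.3.3, fitting 4 group means, empirical Bayes with trend, and Benjamini-Hochberg adjustment over 14186 genes. A gene was called at an adjusted p under 0.1 and a difference over 1.5-fold. V exons came from GENCODE M21 and were aligned with Biopython 1.88. Tables used Python 3.11.15, pandas 2.3.3, numpy 2.4.6 and scipy 1.17.1, and plots matplotlib 3.10.9.

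The Ighv genes and all gene lists were chosen with earlier results of these data known, so no p is given for a list or for a score over its members, and 1 of the lists is not reported here. Ighv genes were named by rule: the phosphorylcholine and phosphatidylcholine genes, the 10 most abundant, the leader of each mouse, the genes called in a comparison (the 10 of largest difference where more were called), the 5 of largest spread within groups and the leader of each family. This gave 46 genes. Outside the rule, Ighv1-62-1, Ighv1-62-3, Ighv1-72, Ighv1-73, Ighv13-1, Ighv16-1, Ighv3-4, Ighv6-6, Ighv8-5 and Ighv8-6 were named after their values or sequences were seen. Alternatives were a pseudocount of 0.1, no filter or a minimum of 1 RPKM, the 2 compared groups alone, limma-voom on recovered reads, each Ighv value relative to the summed Ighv RPKM, an adjusted p under 0.05, shares of reads in place of RPKM, and each mouse left out in turn. Chosen after seeing the data were the genes with the exact spelling, values relative to the mean log2 Ighv value, both rescalings of RPKM, the sums and shares without Ighv13-2, and the fits without XYF F6 and F9 or without XYF F9 and XYM 9. Xist was at 23.9 RPKM or more in every XX mouse and at most 0.0524 in every XY mouse, and Ddx3y at 30.8 or more in every XY mouse and at most 0.0533 in every XX mouse, so no label of sex chromosomes was contradicted.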

Additional observations from a re-analysis of the deposited data

Results flagged for a closer look

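For each named Ighv gene, the summed Ighv RPKM, the effective number and the leading share, in each group, the mouse at either end was set apart when its gap to the nearest other mouse was a large part of the group's whole range, by Dixon's test. Of 196 groups of values 15 held such a mouse, and chance sets apart about 1 in 20 groups of values not chosen by their spread. Some genes here were named for a large spread within groups or for leading a mouse, so nothing is concluded from that rate. All 15 were levels of genes, given as log2(RPKM + 1), with the range of the other mice of the group, and the cause was not tested.

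High mice came first. Ighv1-75 was 10.001 in XXF F1 (others 4.26 to 5.90). Ighv5-12 was 9.90 in XXM 5 (others 3.55 to 4.31). Ighv5-9-1 was 10.62 in XYM 13 (others 5.38 to 6.40). In XYM 15, Ighv2-6 was 8.49 (others 4.28 to 5.30) and Ighv1-37 was 6.79 (others 2.78 to 3.49). Ighv1-56 was 3.74 in XXF F5 (others 1.22 to 1.74), and Ighv1-61 was 4.99 in XYF F7 (others 4.45 to 4.55). Ighv6-5 was 1.07 in XXM 2 (others up to 0.27).

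Low mice were XXF F3, XXF F2 and XXM 2. In XXF F3, Ighv12-3 was 1.52 (others 3.01 to 3.61), Ighv14-1 was 2.38 (others 3.20 to 3.51), Ighv14-2 was 3.64 (others 4.78 to 5.11) and Ighv2-6 was 1.64 (others 2.76 to 3.17). XXF F3 also had the lowest summed Ighv RPKM of its group, 2099. Ighv10-1 was 5.26 in XXF F2 (others 5.99 to 6.13). In XXM 2, Ighv1-80 was 4.64 (others 6.11 to 6.28) and Ighv4-1 was 2.79 (others 4.97 to 5.71), and this mouse had the lowest summed Ighv RPKM of all, 1774.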

How the results depend on the processing

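The male excess of Ighv13-2 kept its call in every alternative run. The number of Ighv genes called depended on the alternatives below. The cause was not tested except where it is stated.

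Scaling changed the direction of calls. Relative to the summed Ighv RPKM, XX minus XY called 5 genes in females (4 higher), 14 in males (14 higher) and 23 averaged (23 higher), in place of 5, 38 and 51, all lower. Males minus females called 50 averaged (2 higher), 16 within XX (3 higher) and 36 within XY (1 higher), in place of 12 (7 higher), 3 (2 higher) and 11 (8 higher). Relative to the mean log2 Ighv value the counts were 4 (3 higher), 12 (8 higher) and 21 (16 higher), then 21 (9 higher), 7 (4 higher) and 21 (10 higher). With RPKM rescaled to the same Ighv sum they were 2 (1 higher), 2 (1 higher) and 8 (8 higher), then 43 (2 higher), 22 (3 higher) and 27 (2 higher). With Ighv13-2 left out of that sum they were 2 (1 higher), 3 (2 higher) and 7 (7 higher), then 21 (9 higher), 8 (4 higher) and 18 (6 higher). These scalings take the summed or mean Ighv level out by construction. Ighv6-5 in males minus females within XY turned from 0.63 to −0.14 relative to the summed Ighv RPKM.

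At an adjusted p under 0.05, fewer genes pass by construction: 1 in females, 12 in males, 1 within XX and 6 within XY. With no filter, 3 were called in females, 21 in males and 1 within XX. With the 2 compared groups alone it was 16 in males and 9 within XX, and with limma-voom 21 in males and 1 within XX. Without XYF F6 and XYF F9 the counts were 1 in females, 31 averaged and 5 within XY. Without XYF F9 and XYM 9 they were 2 in females, 19 for males minus females averaged, 6 within XX, 20 within XY and 4 for the difference of effects.

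Leaving out each mouse in turn gave 1 to 17 called in XX minus XY in females, 7 to 59 in males and 32 to 66 averaged. It gave 11 to 17 for males minus females averaged, 1 to 5 within XX, 6 to 14 within XY, and 0 to 8 for the difference of effects.

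Without Ighv13-2 the summed Ighv RPKM of XYM was 8106, the effective number 44.9 in XXM and 42.8 in XYM, and the leading share 13.51% in XXM and 11.3% in XYM. The XXM share rests on XXM 5, at 33.3%, and was at most 9.88% in the other XXM mice. Over the genes with the exact spelling the effective number was 40.3 in XXF, 44.2 in XYF, 19.96 in XXM and 24.1 in XYM. The share of Ighv7-1 could not be computed, since no row for it was found. Reads on an Ighv gene limit the values in XXM 2 most, with 6591 reads over all of them.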
